A study of Drosophila melanogaster with 11 samples.

Results

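The voltage-gated ion channels of the fly nervous system are encoded by a small set of long genes. Described here are 10 of them: Sh, Shab, Shal, Shaw, eag, sei and slo for potassium channels, para for the sodium channel, and cac and Ca-alpha1D for calcium channels. They were taken by name, out of 17557 genes on the chromosome arms, and a peak was given to a channel gene where the deposited tables name that gene as intersecting the peak or, where no gene intersects it, as flanking the peak. The tables come from DamID of E(spl)m8-HLH in whole Drosophila melanogaster embryos. E(spl)m8-HLH is a repressor of the helix-loop-helix family whose gene Notch switches on. In DamID it carries a bacterial adenine methyltransferase (Dam), which methylates GATC sites in the DNA around it.

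The study holds 11 libraries in 6 conditions, namely DamID of m5 and of m8 with and without the pros-Gal4 driver, and ChIP of m8 and of Su(H), both driven by pros-Gal4. Only the un-driven m8 DamID was analysed here. Its embryos, of stages 9 to 16 and kept at 26 °C, carried a UAS transgene for the m8-Dam fusion and no Gal4, so that leaky expression from the transgene in any cell of the embryo supplied the protein. The label of the values names m8 and DamID and does not name pros-Gal4, and they were taken as un-driven on that ground. The tables hold 1 of the 2 libraries of that condition, the sources used here do not say which, and none of the 11 libraries is of unfused Dam. There is therefore no replicate and no control in these values. Intervals beside RPM values are 95% intervals, taken exactly from the Poisson distribution of the reads, and express the error of counting alone.

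As background, voltage-gated channels open a pore for one ion when the membrane potential changes. In neurons and muscle the sodium channel carries the upstroke of the action potential, calcium channels couple depolarization to transmitter release and contraction, and potassium channels repolarize the membrane. E(spl)-HLH proteins are known for repressing genes in dividing neural progenitors and in cells that Notch holds back from a neural fate, while the channels are products of differentiated cells.

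Peak height was given by the authors as reads per 1000000 reads of the library (RPM). The library total behind this scale is 1925156 reads, and 1 RPM is 1.93 reads. The Qseq table holds 3973 peaks above the authors' threshold of 20 RPM, with a median of 40.5 RPM, and its lowest peak, at 20.3 RPM, rests on 39 reads. The first MACS table holds 4209 peaks above 20 RPM with a median of 54.0 RPM. The other MACS table holds 1310 weak peaks between 6.75 and 19.7 RPM with a median of 14.0 RPM. Of the Qseq peaks on the chromosome arms, 78.7% overlapped a peak of one of the MACS tables. The RPM of a peak grows with its length, and RPM per kb of peak is therefore also given for the peaks of the 10 channel genes.

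The 3 tables held 9 peaks at the 10 channel genes, 3 in each table. Shal and slo were the channel genes with a Qseq peak, and Shal and slo were also the ones with a MACS peak above 20 RPM. Sh, Shab and Ca-alpha1D had 1 weak MACS peak each and no other. Shaw, eag, sei, para and cac were named by no peak of any table.

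**Figure D1:**
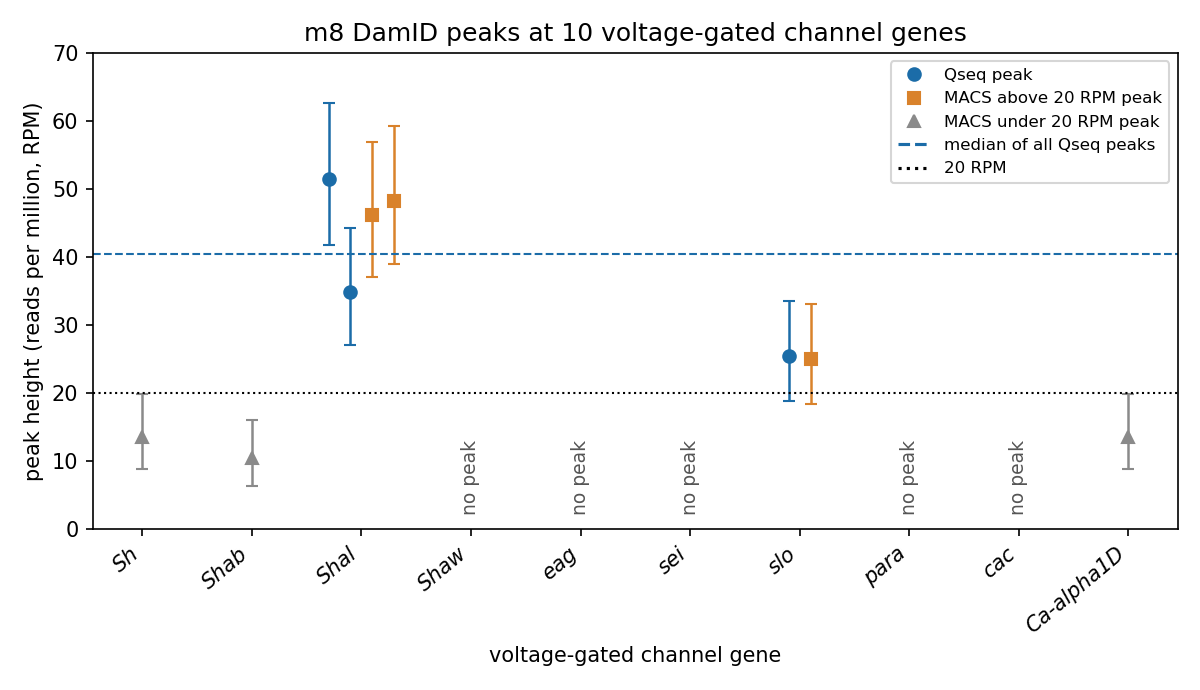
Height in RPM of each peak at the 10 voltage-gated channel genes, by table, with its 95% counting interval from the 1 library. The dashed line is the median of all Qseq peaks (40.5 RPM) and the dotted line the authors' threshold of 20 RPM. Shal and slo have peaks above 20 RPM, of which 1 Qseq peak of Shal lies above 40.5 RPM and both of its MACS peaks lie below the 54.0 RPM that is the median of their own table, while Sh, Shab and Ca-alpha1D lie between 10.4 and 13.5 RPM and 5 genes have no peak.

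Sequence could be read for the weak peaks of Ca-alpha1D and Shab, which lie where the positions in the tables match the Release 6 genome. Both genes are on the plus strand, and all stretches below are from that strand of Release 6. They are shown because a DamID signal can only lie between GATC sites, and because the sites and boxes in these stretches can be read from the letters. Capitals mark GATC and 3 boxes bound by E(spl) proteins, CACNAG (the N box), CACGCG and CACGTG, on either strand. The first stretch is the part of the Ca-alpha1D peak in its first intron, chr2L:16165972-16166217, and holds a CACNAG on the other strand near its start. The second is the middle of the peak upstream of Shab, chr3L:2893573-2893872, and holds a CACGTG and a CACNAG. The 4 shorter stretches of 30 bases are the GATC sites that bound the fragment under the middle of each peak, at chr2L:16165828-16165857 and chr2L:16166430-16166459 for Ca-alpha1D and at chr3L:2892267-2892296 and chr3L:2893887-2893916 for Shab.
Ca-alpha1D peak, first intron: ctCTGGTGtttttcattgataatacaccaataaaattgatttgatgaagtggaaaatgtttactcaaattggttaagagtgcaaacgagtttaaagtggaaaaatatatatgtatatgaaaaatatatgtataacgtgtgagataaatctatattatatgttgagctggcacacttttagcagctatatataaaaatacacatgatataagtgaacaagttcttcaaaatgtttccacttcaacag
Shab peak, middle: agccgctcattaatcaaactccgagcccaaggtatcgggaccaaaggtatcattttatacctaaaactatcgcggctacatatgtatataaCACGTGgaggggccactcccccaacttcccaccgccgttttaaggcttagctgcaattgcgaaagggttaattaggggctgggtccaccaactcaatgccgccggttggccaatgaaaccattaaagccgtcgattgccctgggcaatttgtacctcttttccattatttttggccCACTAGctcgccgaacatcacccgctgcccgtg
Ca-alpha1D left site: acagttctcggctGATCgttggcgtgaatt
Ca-alpha1D right site: ggaatcgccgaggGATCagcttgtaagtga
Shab left site: tatagccggctctGATCtcccaggctaatc
Shab right site: ggtgcttagggtcGATCcgcttaaaGATCg
The right site of Ca-alpha1D begins 8 bases before the end of a noncoding exon, and the right site of Shab has a neighbouring GATC 12 bases on.

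The Shaker family of potassium channels (Sh, Shab, Shal and Shaw, the fly members of the Kv1, Kv2, Kv4 and Kv3 classes) held the highest values of the list, all at Shal. Shal encodes a fast inactivating channel of neuronal cell bodies and dendrites, and lies on the minus strand of 3L (19566851 to 19584568 in Release 6, 17.7 kb, 3 annotated transcripts). Positions in the tables are in another numbering there, as they are on 2R, 3R and X, and are not to be read against those of the gene. Its first Qseq peak (3L 19569544 to 19570592 in the numbering of the table, 1049 bp) had 51.4 RPM from 99 reads, with an interval of 41.8 to 62.6 RPM. Its other Qseq peak (19572899 to 19573710, 812 bp) had 34.8 RPM from 67 reads, with an interval of 27.0 to 44.2 RPM. The 2 peaks are 2306 bp apart and their intervals overlap. The MACS table placed peaks over both, of 46.2 RPM (37.1 to 56.9) and 48.3 RPM (39.0 to 59.2), on stretches of 1112 and 1284 bp, with 41.6 and 37.6 RPM per kb. Both peaks of Shal are thus present with either peak caller.

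Within the whole table the peaks of Shal stood near the middle. Of all Qseq peaks, 39.2% were at least as high as its first peak and 59.2% at least as high as its other one. Its MACS peaks lay below the median of 54.0 RPM of their own table, in which 57.8% and 55.5% of peaks were at least as high. Per kb of peak the Qseq values were 49.0 and 42.9 RPM, against a median of 58.5 RPM per kb for all Qseq peaks. The nearest gene to its left that a Qseq peak names is the microRNA gene mir-9a, 1.6 kb away, with 34.8 RPM in another peak that lies between CG9300 and mir-9a. To its right it is Rnf146, 52.6 kb away, with 20.8 RPM.

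Sh, which encodes the Shaker A-type channel and is the longest gene of the list (138.9 kb on the minus strand of X, 17924307 to 18063247 in Release 6, with 17 transcripts), had a single weak peak. It covered 533 bp, from X 17910991 to 17911523 in the numbering of the table, and had 13.5 RPM from 26 reads (8.8 to 19.8 RPM). Of the weak peaks, 57.3% were at least as high, and per kb of peak it had 25.3 RPM. The interval of the Sh peak lies below the 20 RPM at which Qseq peaks begin and does not overlap the interval of the first Shal peak. The weak table holds only peaks under 20 RPM, so that the Sh peak stands below a Qseq peak was fixed in advance. No Qseq peak lies between those of CG6847 (21.3 RPM), a gene 144 bp to the left of Sh, and of CG7536 (27.0 RPM) to its right, a stretch of 171.2 kb.

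Shab encodes a delayed rectifier and lies on the plus strand of 3L (2895017 to 2959579 in Release 6, 64.6 kb, 10 transcripts). No peak lay inside it, and a weak peak of 10.4 RPM from 20 reads (6.3 to 16.0 RPM) was given to Shab and spz5 as flanking genes. The peak covered 393 bp, from 3L 2893526 to 2893918. The 2 genes are divergent, with starts 2851 bp apart, and the peak lies between them, 1099 to 1491 bp upstream of the start of Shab and 1360 bp from the start of spz5, which encodes a Spätzle-type neurotrophin. Which of the 2 genes, if either, the peak belongs to was not tested. Most of it lies in a GATC fragment of 1620 bp, and its right end runs past the site that bounds this fragment and over the next GATC. Per kb of peak it had 26.4 RPM. Shaw, which encodes a channel that does not inactivate (2L 3718185 to 3729145, plus strand, 11.0 kb, with the highest density of GATC sites of the list, 3.83 per kb), had no peak in any table. Its nearest Qseq peaks were at CG2818, 4.7 kb to the left with 35.8 RPM, and at the noncoding RNA gene CR43704, 41.2 kb to the right with 394.8 RPM.

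The eag family is made up in this list of eag, which encodes the ether-à-go-go channel, and sei, which encodes the fly relative of the mammalian hERG channel. Neither had a peak. The eag gene (X 14955477 to 15009989 in Release 6, plus strand, 54.5 kb) lies 148 bp from hiw, which encodes a ubiquitin ligase of synapse growth and whose highest Qseq peak had 330.4 RPM, far above every peak of the 10 channel genes. That is not the peak of hiw nearest to eag, which had 39.0 RPM. No Qseq peak lies over the 67.3 kb between this peak and the nearest peak of pdgy (49.3 RPM), which enclose eag. The sei gene (2R 24047411 to 24053035 in Release 6, plus strand, 5.6 kb, the shortest of the list) lies between the Qseq peaks of EbpIII (44.2 RPM) and Rap2l (46.7 RPM), which are 36.3 kb apart.

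The slo gene encodes the large-conductance potassium channel that is opened by calcium and voltage together. It lies on the plus strand of 3R (24662491 to 24711595 in Release 6, 49.1 kb, 23 transcripts) and had 1 peak in each of the tables above 20 RPM. The Qseq peak (3R 20492360 to 20493072 in the numbering of the table, 713 bp) had 25.5 RPM from 49 reads, with an interval of 18.8 to 33.6 RPM. The MACS peak over it had 24.9 RPM from 48 reads (18.4 to 33.1 RPM), or 34.0 RPM per kb. This is among the lowest peaks of the table: 80.3% of Qseq peaks were at least as high, and 91.8% were at least as high per kb of peak, where slo had 35.7 RPM. Its interval includes the authors' threshold of 20 RPM, overlaps that of the lower Shal peak and lies below that of the higher one.

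The sodium channel gene para is the only gene of a voltage-gated sodium channel known to carry action potentials in the fly, and the target of pyrethroid insecticides. It spans 78.1 kb on the minus strand of X (16455027 to 16533096 in Release 6) with 60 annotated transcripts, the most of the list, and 248 GATC sites. No peak of any table named it. The nearest Qseq peaks around it, at hang (59.2 RPM) and CG9784 (22.9 RPM), are 168.2 kb apart. The calcium channel gene cac, which encodes the presynaptic channel of transmitter release (X 11931280 to 11985087 in Release 6, minus strand, 53.8 kb, 177 GATC sites), also had none, and the peaks that enclose it, at pot (60.8 RPM) and fw (24.9 RPM), are 87.4 kb apart.

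Ca-alpha1D, which encodes the L-type calcium channel of muscle and neurons (2L 16165831 to 16190540 in Release 6, plus strand, 24.7 kb), was the only gene of the sodium and calcium channels with a peak. Its weak MACS peak (2L 16165972 to 16166495, 524 bp) had 13.5 RPM from 26 reads, with an interval of 8.8 to 19.8 RPM, as at Sh. The peak lies at the start of the gene, 141 to 664 bp downstream of the first annotated start site, which 5 of its 10 transcripts use. It covers most of the first intron, the whole noncoding second exon (2L 16166218 to 16166451) and the first bases of the second intron of those transcripts, and ends on a GATC site. Most of the peak lies in a GATC fragment of 602 bp, and the rest lies past the right end of that fragment. Per kb of peak it had 25.8 RPM. The nearest Qseq peaks were at beat-Ia (133.5 RPM, 96.3 kb to the left) and over PRL-1 and EndoGI (339.2 RPM, 65.4 kb to the right), so that this gene lay in the longest stretch without a Qseq peak among the 8 channel genes that lacked one, 186.5 kb.

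**Figure D2:**
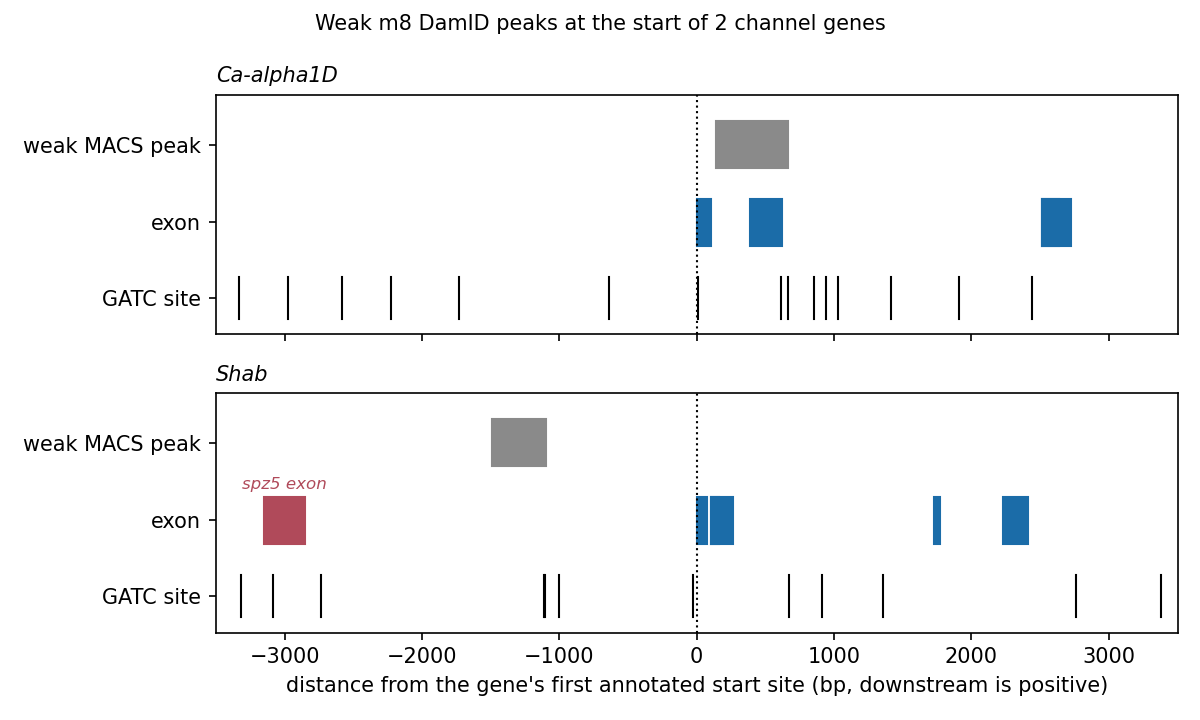
Weak MACS peaks (grey), exons (blue, spz5 in red) and GATC sites (black lines) around the first annotated start of Ca-alpha1D and of Shab, with the distance from that start in bp on the horizontal axis. The Ca-alpha1D peak lies 141 to 664 bp past the start over the second exon, and the Shab peak lies 1099 to 1491 bp before the start, between Shab and spz5.

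The boxes in these peaks were read against those of other weak peaks on the same stretch of genome. The Ca-alpha1D peak held 1 CACNAG, as did 49.0% of the 247 weak peaks of 2L, and 1 CACGCG, as did 11.3% of them, and it held no CACGTG, which 9.7% held. The Shab peak held 1 CACNAG and 1 CACGTG, which 34.0% and 8.5% of the 47 weak peaks of the first 4 Mb of 3L also held, and it held no CACGCG, which 10.6% held. Each peak held 2 GATC sites, and 72.5% and 63.8% of the peaks of those stretches held at least 1. Peaks differ in length, with medians of 522 and 554 bp for these stretches, and a longer peak has more room for a box. These matches describe the letters and say nothing of what bound there.

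Counted over the list, 2 of the 10 channel genes were named by a Qseq peak, against 13.8% of all genes. MACS peaks above 20 RPM named 2 of the 10 channel genes, against 18.0% of all genes. Weak MACS peaks named 3 of the 10, against 7.47% of all genes, and any table named 5 of the 10, against 23.4%. These shares of all genes are of genes with a median length of 1.70 kb, while the channel genes are 5.6 to 138.9 kb long and a longer gene has more room for a peak. Among the 3228 genes at least as long as sei, 40.1% were named by a Qseq peak, 49.7% by a MACS peak above 20 RPM, 19.5% by a weak MACS peak and 58.4% in any table. Read against genes of that length, fewer channel genes were named by peaks above 20 RPM, and with 10 genes the counts are too small to call this particular to them.

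By length the channel genes without a Qseq peak were mainly the longest. In the class of 50 kb and over, 0 of the 5 channel genes (Sh, Shab, eag, para and cac) had a Qseq peak, against 62.0% of the 316 genes of that length. Between 20 and 50 kb slo had one and Ca-alpha1D did not, against 49.2% of such genes. Between 10 and 20 kb Shal had one and Shaw did not, against 41.2%, and sei had none in the class of 5 to 10 kb, in which 26.6% of genes were named. Of the channel genes of 50 kb and over, 4 are on X. The arm X, with 2684 genes, had 465 Qseq peaks. There were 694 on 2L, 765 on 2R, 777 on 3L and 884 on 3R, which hold 3464 to 4176 genes each. The share of named genes on X was 13.2%, near that of the other arms (13.0 to 14.8%). These shares cover genes of all lengths, and the long genes of X were not counted apart.

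**Figure D3:**
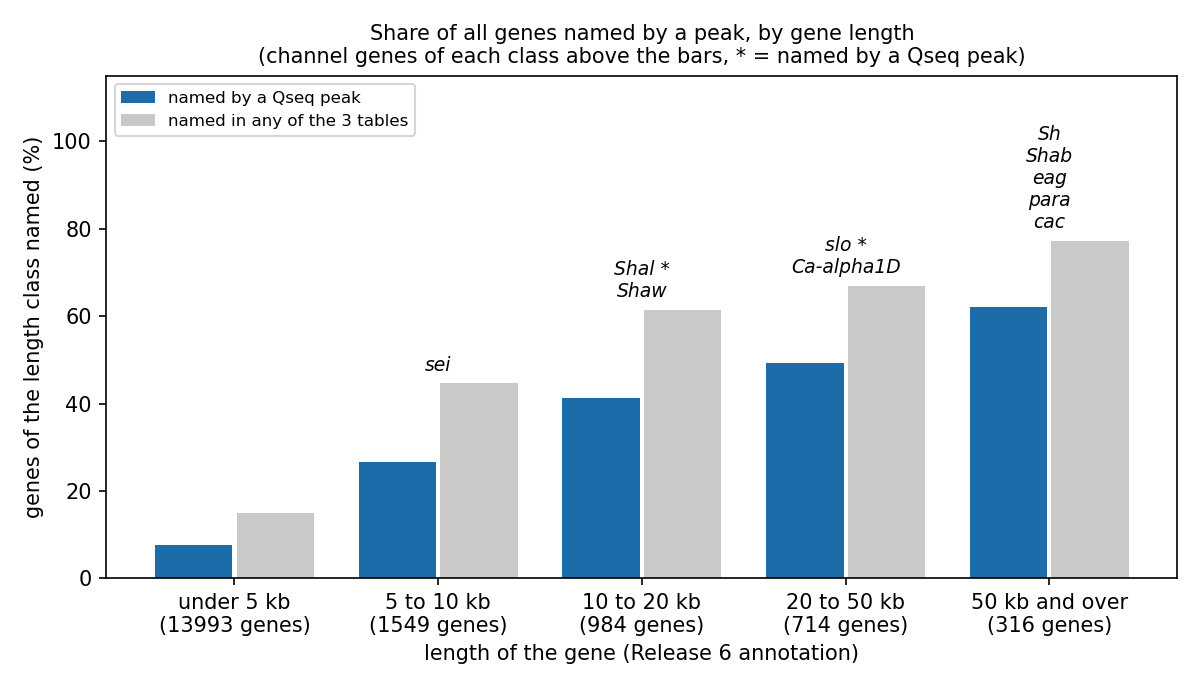
Share of genes (%) named by a Qseq peak (blue) and in any of the 3 tables (grey) in classes of gene length in kb, with the number of genes in each class below. Channel genes are written above the class they belong to, with a star on those named by a Qseq peak. The share named by Qseq rises to 62.0% in the class of 50 kb and over, where none of the 5 channel genes has a star.

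Per unit of length the channel genes held 6.02 Qseq peaks per Mb inside genes (3 peaks in 498 kb), against 31.6 per Mb for the 3120 protein-coding genes at least as long as sei, a ratio of 0.19. For MACS peaks above 20 RPM the values were 6.02 per Mb and 35.0 per Mb, a ratio of 0.17. Each ratio rests on 3 peaks in the channel genes and was given no interval. The long protein-coding genes were matched to the channel genes by a minimum length alone. For weak MACS peaks they were nearer, at 4.02 per Mb (2 peaks) in the channel genes and 8.19 per Mb in the long protein-coding genes. GATC sites, without which DamID gives no signal, were present in all 10 genes, with 15 in sei and 288 in Sh. Their density was 1.81 (Shal) to 3.83 (Shaw) per kb with a median of 2.73 per kb, against a median of 3.04 per kb in the long protein-coding genes. Shal, with the lowest density of GATC sites, had the highest peaks of the list.

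The stretches without a Qseq peak that enclose the other 8 channel genes were 36.3 kb (sei) to 186.5 kb (Ca-alpha1D) long, against a median of 13.0 kb between neighbouring Qseq peaks over all arms. A long gene with no peak must lie in a long stretch, and long stretches take up much of the genome. Stretches at least as long as that of Ca-alpha1D made up 20.4% of all sequence between Qseq peaks, those at least as long as that of Sh 23.5%, of para 25.1%, of Shab 27.9%, of cac 52.4%, of eag 61.5%, of Shaw 68.1% and of sei 80.0%. Ca-alpha1D, Sh, para and Shab thus lay in longer stretches than most of that sequence.

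By ion, 2 of the 7 potassium channel genes had a Qseq peak and 4 of the 7 were named in any table. Of the 3 sodium and calcium channel genes, 0 had a Qseq peak and 1 was named in any table. The background shares are those given above. These counts differ by few genes and were not tested.

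A wider set of channel genes gives a comparison. A list of 28 related genes was taken from knowledge of the families: 9 pore-forming relatives, 11 auxiliary subunits and modulators, and 8 leak and inward rectifier channels. Like the 10 channel genes, it was chosen with earlier results of these data known. Of the 28, 12 were named by a Qseq peak, against 13.8% of all genes and 40.1% of genes at least as long as sei, and 16 in any table, against 23.4% and 58.4%. Their 28 Qseq peaks had a median of 29.9 RPM and a highest value of 115.3 RPM, against the median of 34.8 RPM for the 3 Qseq peaks of the 10 channel genes. Some of the 28 peaks overlap or lie close together, and they were not merged.

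**Figure D4:**
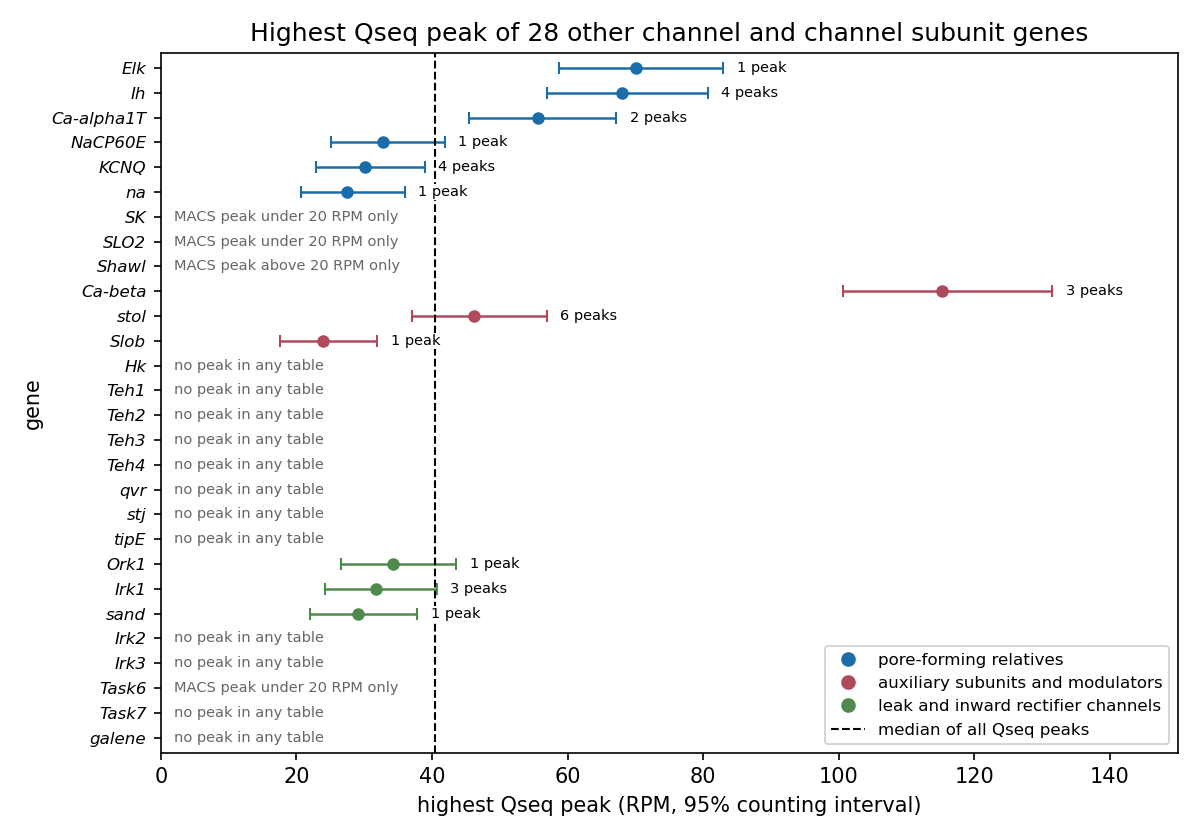
Highest Qseq peak in RPM, with its 95% counting interval from the 1 library, of 28 related channel and subunit genes, in 3 groups by colour. Genes without a Qseq peak carry a note on whether a MACS table names them, and the dashed line is the median of all Qseq peaks (40.5 RPM). Ca-beta stands highest at 115.3 RPM, and 8 of the 11 auxiliary genes have no peak in any table, where 23.4% of all genes are named in any table.

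All 9 pore-forming relatives were named in at least one table, and 6 of the 9 by a Qseq peak. They are 11.1 to 94.8 kb long, and in the length classes from 10 kb up 61.4 to 77.2% of genes were named in any table and 41.2 to 62.0% by a Qseq peak. Elk, a relative of eag, had a Qseq peak of 70.1 RPM (58.8 to 83.0 RPM) that lies beside the gene and is also given to PpY-55A. Ih, which encodes the channel opened by hyperpolarization, had 4 Qseq peaks of 26.0 to 68.0 RPM, all inside the gene. Those of 27.0 and 26.0 RPM overlap each other, under a single MACS peak of 92.5 RPM. Ca-alpha1T, the gene of the T-type calcium channel, had 2 Qseq peaks of 55.6 and 37.4 RPM. They overlap each other, under a single MACS peak of 85.7 RPM. These peaks stand beside the absence of any peak at cac and the weak peak at Ca-alpha1D. NaCP60E, the other gene of the sodium channel family, had a Qseq peak of 32.7 RPM (25.1 to 41.9 RPM), where para had none. KCNQ had 4 Qseq peaks of 27.0 to 30.1 RPM, over part of which MACS drew a single peak of 2728 bp and 179.7 RPM. That MACS peak and 2 of the Qseq peaks also intersect CG12214. The pore-forming relatives held 26.2 Qseq peaks per Mb inside genes (12 peaks in 457 kb), against 6.02 per Mb in the 10 channel genes. Overlapping Qseq peaks, as at Ih and Ca-alpha1T, were counted apart in these values, so that they are not counts of separate sites. For MACS peaks above 20 RPM the values were 15.3 per Mb in the relatives and 6.02 per Mb in the 10 channel genes, and for weak MACS peaks 4.37 and 4.02 per Mb.

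Shawl, the closest relative of Shaw, had a MACS peak of 20.8 RPM (14.8 to 28.3 RPM) that also overlaps Aldh, and no Qseq peak. SK and SLO2, which encode potassium channels opened by calcium and by sodium, had weak peaks of 14.5 RPM (9.7 to 21.0 RPM) and 10.4 RPM (6.3 to 16.0 RPM). All weak peaks are under 20 RPM, so that both stand below the 25.5 RPM of slo was fixed in advance.

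Among the 11 auxiliary genes, Ca-beta, which encodes the cytoplasmic beta subunit of calcium channels, had the highest Qseq peak by RPM of all channel genes examined. Per kb of peak it had 87.1 RPM, below the 181 RPM per kb of the Elk peak, which is 388 bp long. The Ca-beta peak (2L 11169041 to 11170364, 1324 bp) had 115.3 RPM from 222 reads, with an interval of 100.6 to 131.5 RPM that lies above those of all peaks at the 10 channel genes. It lies 509 to 1832 bp downstream of the nearest annotated start of Ca-beta, in no annotated exon of that gene, and 3 GATC sites are inside it. It held none of the 3 boxes. Of the 694 Qseq peaks of 2L, 59.8% held a CACNAG, 22.3% a CACGCG and 10.4% a CACGTG. The alpha2delta subunit gene stol, listed under its older name CG4587, had 6 Qseq peaks of 28.6 to 46.2 RPM, of which 2 lie beside the gene and are also given to CycE. The 6 lie in close pairs, each pair at a single MACS peak. These 3 MACS peaks had 61.8 to 74.8 RPM. The alpha2delta gene stj had no peak.

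Slob, the gene of a protein that binds the Slo channel, had a flanking Qseq peak of 23.9 RPM (17.5 to 31.9 RPM), which overlaps in its interval with the 25.5 RPM of slo itself. The modulators of Shaker channels Hk and qvr had no peak in any table. Neither did tipE and the related genes Teh1, Teh2, Teh3 and Teh4, which encode accessory subunits of the Para channel, as at para. Ca-beta, stol and Slob are thus the auxiliary genes with a peak, and all 3 are 33.1 kb or longer, as is Teh1 (42.0 kb) without a peak. Any table thus named 3 of the 11 auxiliary genes, against 23.4% of all genes. By length, any table named 14.9% of genes under 5 kb and 44.6% of genes of 5 to 10 kb. Teh3 (2.0 kb), Teh4 (3.4 kb), tipE (5.3 kb), Teh2 (9.0 kb) and qvr (9.1 kb) are of these lengths. The genes stj (13.8 kb) and Hk (30.1 kb), also without a peak, are longer. Any table named 61.4% of genes of 10 to 20 kb and 66.9% of genes of 20 to 50 kb.

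Of the 8 leak and inward rectifier genes, Ork1 had a Qseq peak of 34.3 RPM, Irk1 (listed under its older name Ir) had 3 of up to 31.7 RPM, and sand, listed as CG8713, had 1 of 29.1 RPM. Over the Irk1 peaks MACS drew longer ones, the highest with 148.0 RPM on 3275 bp. Task6 had a weak peak of 13.5 RPM, equal to those of Sh and Ca-alpha1D, and galene, Task7, Irk2 and Irk3 had none. The intervals of the Qseq peaks of Ork1 (26.5 to 43.6 RPM), Irk1 (24.2 to 40.7 RPM) and sand (22.0 to 37.8 RPM) all overlap those of slo and of the lower Shal peak.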

How the data were processed

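Per the study's methods, the authors assembled DamID reads of 100 bp with DNASTAR SeqMan NGen and detected peaks with Qseq. They deposited peak heights as RPM, the reads of a peak per 1000000 reads of its library, and for Qseq also the read count. The authors' p-value entered the 0.05 and 0.01 thresholds alone. For MACS, the labels of the tables each carry a cut value, which differs between them and is not explained. No version and no other settings are given in the sources used here.

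All columns with values were matched to the un-driven m8 DamID, by a label without pros-Gal4, and 0 were left unmatched. Of 4521 names in the tables, 4121 (91.2%) matched a gene of the Release 6 annotation (Ensembl 115) by symbol or by a synonym held by 1 gene. Of the genes of the annotation, 127 with a bracket in the symbol were left out, since 144 Qseq peaks carry a name that was cut at a bracket.

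Positions were checked against GATC sites. On 2L, 21.3% of Qseq peaks begin 2 bases after the start of a GATC in Release 6, as do 21.6% on the first 4 Mb of 3L, against 1.3% on the rest of 3L, at most 0.39% on 2R and 3R and 0.22% on X. Sequence and exons were read on the first 2 stretches alone, and elsewhere positions are in the numbering of the tables. The study names dm6 (Release 6) for the display of its profiles, which the positions outside these stretches did not match. Distances between genes come from Release 6.

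With 1 library, no test between conditions was made. The rule for names took all 10 members, genes that share or flank their peaks and up to 6 genes of the wider list with the highest RPM. The other genes of that list and the nearest genes with a Qseq peak were chosen once their values had been seen. The members and lists were chosen with earlier results of these data known. A planned search of channel proteins was not run. Python 3.11.15, numpy 2.4.6, scipy 1.17.1 and matplotlib 3.10.9 were used, and the intervals and the naming of genes were tested on simulated data.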

Additional observations from a re-analysis of the deposited data

How the results depend on the processing

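With peaks inside genes alone, MACS peaks above 20 RPM or the authors' p of at most 0.01 in place of the Qseq table as reported, 2 of the 10 channel genes and 3 peaks were counted, as in the report, and also with peaks under 500 bp apart counted as 1 there were 3 peaks. The highest p that the Qseq peak finder gave to any listed peak was 0.007. The setting of 0.01 therefore removed no peak and could not have changed these counts. With both MACS tables together, 5 genes and 6 peaks were counted, and 5 genes with peaks of any kind, a setting chosen after seeing the data. With Qseq peaks of at least 40 RPM, 1 gene (Shal) and 1 peak remained. The median of the channel genes' Qseq peaks was 34.8 RPM, 42.9 RPM per kb of peak, against 58.5 for all Qseq peaks, and 46.2 RPM with MACS peaks above 20 RPM. The share of genes named by a Qseq peak was 13.8% of all genes, 16.2% of protein-coding genes and 40.1% of genes at least as long as sei. Chosen after seeing the data, MACS peaks above 20 RPM named 13 of the 28 related genes and peaks inside genes alone 10, against 12.

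No paired analysis was possible because there is 1 library and nothing to pair it with. Only peaks above a minimum are listed, so a gene without a peak is not shown to lack signal, and the lowest Qseq peak rests on 39 reads. No library of unfused Dam is among the 11, and no background of the enzyme was subtracted.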
